A study of Mus musculus with 2 samples.

Results

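The genes described here are a set of antiviral genes induced by type I interferon, namely Rsad2, Ifit1, Ifit2, Ifit3, Isg15, Usp18, Oasl2, Ifi35, Parp9 and Parp14. They were chosen by name, and each is represented by every probe set of the deposited table that the platform annotation ties to that gene alone. By this rule 9 of the 10 genes were found, with 11 probe sets, among 8721 named genes in all. Isg15 had no probe set of its own. The study had 2 groups, both of colon epithelial cells taken from mice of the inbred strain C57BL/6 at an age of 7 weeks. The control cells received the buffered salt solution PBS, and the treated cells received MIF, taken here to be the cytokine macrophage migration inhibitory factor. Each group is 1 Affymetrix array, so the spread between samples is unknown and no difference below could be tested. The sources used here do not give the MIF dose, the length of the incubation, how many animals were used or how the cells were isolated.

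Type I interferons bind a receptor made of the subunits IFNAR1 and IFNAR2, which signals through the kinases JAK1 and TYK2. A complex that holds STAT2 and IRF9 then binds interferon-stimulated response elements (ISREs) in the promoters of many genes. Many of their products attack steps of viral replication, and others, such as USP18, limit the response. In the gut epithelium, type III interferons use the same complex through a receptor of their own. Interferon gamma acts chiefly through gamma-activated sites (GAS), and many genes respond to both kinds of interferon.

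The promoters of the antiviral genes are shown because ISREs are the sites through which type I interferon is known to act on such genes. RefSeq start sites on the mouse build GRCm38.p6 gave sequence for 7 of the 10 genes, and Usp18, Parp9 and Parp14 are named only. The 250 bases before each start site were searched for an ISRE core, which is a GAAA and another GAAA with any 2 bases between them (on the other strand TTTC, 2 bases and TTTC), and for a GAS core, TTCNNNGAA. The ISRE core was present for 4 of the 7 genes, Rsad2, Ifit1, Ifit3 and Isg15, and in 2.98% of 32851 promoter windows of all genes (978 windows). The GAS core was present in 7.02% of all windows and, among the antiviral genes, in 1 of the 2 windows of Ifit2. No ISRE core overlapped a GAS core in these windows. Sequences are given 5′ to 3′ on the strand of the gene, ending at the base before the start site, with ISRE cores in capitals. They are those of the genes that carry an ISRE core, together with Ifi35, which had the largest difference between the arrays among the antiviral genes and no ISRE core in this window.
Rsad2, chr12:26456453-26456702, minus strand: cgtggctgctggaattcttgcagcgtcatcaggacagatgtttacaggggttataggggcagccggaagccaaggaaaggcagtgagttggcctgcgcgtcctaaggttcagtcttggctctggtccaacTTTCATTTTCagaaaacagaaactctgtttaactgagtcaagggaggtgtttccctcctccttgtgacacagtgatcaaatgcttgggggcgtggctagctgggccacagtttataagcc
Ifi35, chr11:101448162-101448411, plus strand: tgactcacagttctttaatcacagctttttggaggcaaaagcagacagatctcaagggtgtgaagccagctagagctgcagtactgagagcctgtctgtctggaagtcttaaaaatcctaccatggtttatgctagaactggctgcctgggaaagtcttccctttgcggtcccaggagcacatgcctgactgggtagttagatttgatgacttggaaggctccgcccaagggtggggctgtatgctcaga
Ifit1, chr19:34640639-34640888, plus strand: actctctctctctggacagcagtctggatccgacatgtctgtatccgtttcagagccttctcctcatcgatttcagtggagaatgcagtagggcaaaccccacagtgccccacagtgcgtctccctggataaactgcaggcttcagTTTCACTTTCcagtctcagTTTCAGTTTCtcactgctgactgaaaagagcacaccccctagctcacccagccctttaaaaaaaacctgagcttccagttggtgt
Ifit3, chr19:34583279-34583528, plus strand: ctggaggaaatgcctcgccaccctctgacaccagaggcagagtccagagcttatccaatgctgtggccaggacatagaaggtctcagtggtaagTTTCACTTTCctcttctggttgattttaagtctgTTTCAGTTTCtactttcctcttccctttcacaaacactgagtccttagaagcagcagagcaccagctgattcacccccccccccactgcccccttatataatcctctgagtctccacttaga
Isg15, chr4:156200819-156201068, minus strand: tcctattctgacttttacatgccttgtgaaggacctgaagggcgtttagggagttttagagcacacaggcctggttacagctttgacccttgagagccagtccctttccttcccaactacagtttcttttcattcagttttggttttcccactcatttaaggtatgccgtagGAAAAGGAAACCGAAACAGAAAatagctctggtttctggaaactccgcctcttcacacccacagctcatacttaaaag

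The Rsad2 core begins 120 bases before the start site. Ifit1 and Ifit3 each carry a pair of cores with the same letters, TTTCACTTTC followed by TTTCAGTTTC, beginning 104 and 85 bases before the start site in Ifit1 and 156 and 122 bases before it in Ifit3. The 3 cores of Isg15 form a run in which each overlaps the next, and the farthest begins 78 bases before the start site. A match describes these letters and does not show that a factor binds there.

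Signals are intensities per probe set as processed by the authors, linear and in arbitrary units. Signals under 232, the 40th percentile over both arrays, were raised to that floor before differences were taken. Each gene takes the value of its brightest probe set by mean log2 signal, and every difference is MIF minus PBS on the log2 scale. A gene was counted as higher or lower where its signals differed by at least 1.2-fold, or 0.26 on the log2 scale. The median signal of the whole table was 337 for PBS and 346 for MIF, which differ by 0.04 on the log2 scale. Of 5839 genes above the floor on at least 1 array, 6.82% were higher and 6.29% lower on the MIF array by that measure, and the SD of their log2 differences was 0.19. Higher genes made up 52.0% of these calls with the columns as deposited and 36.6% after median centring. Separate probe sets of a gene, which measure the same RNA, differed with an SD of 0.15 over 1800 genes, and this SD leaves out the spread between preparations of cells.

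The antiviral genes had no common direction. Ifi35 and Rsad2 were higher on the MIF array, at 1.49-fold and 1.43-fold. The other 7 measured genes lay within 1.2-fold, and none was lower by that amount. The count of 2 of 9 higher stands beside the 6.82% of all assessed genes. The median log2 difference of the 9 genes was 0.02, against -0.01 for all 5839 assessed genes. After median centring both were lower, at -0.02 for the 9 genes and -0.05 for all assessed genes. All 9 were above the floor on both arrays with the probe set that represents them.

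**Figure D1:**
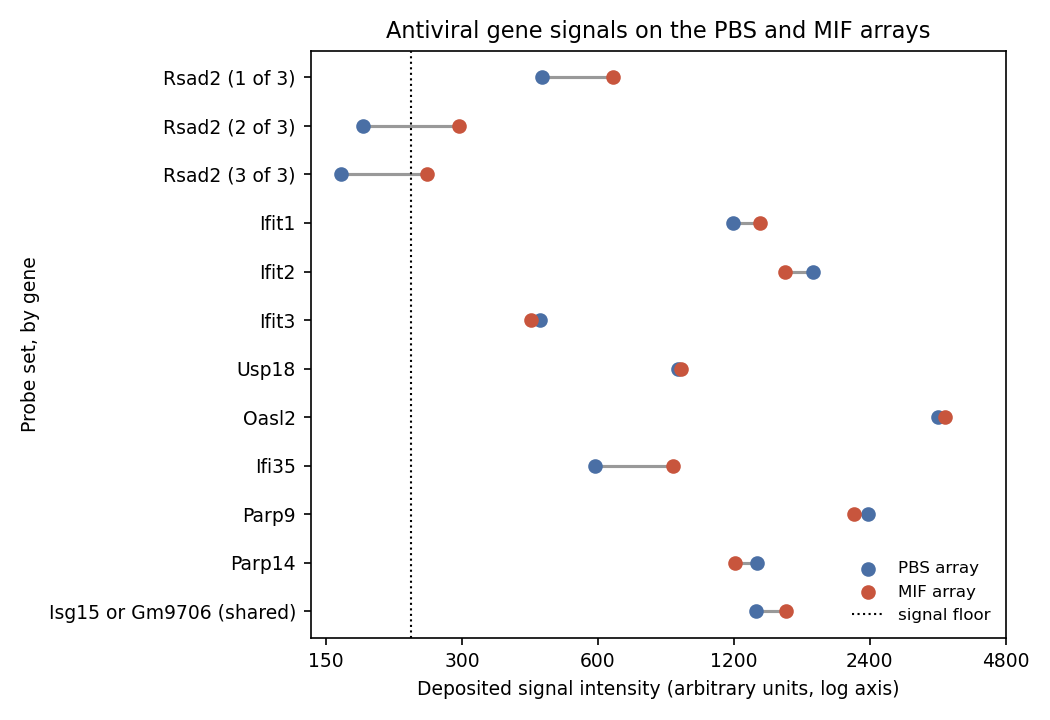
Deposited signal intensity (arbitrary units, log axis) of each probe set on the PBS array (blue) and the MIF array (red), with a grey line joining the arrays and a dotted line at the signal floor of 232. The points of Ifi35 and of the 3 probe sets of Rsad2 lie far apart, with the MIF array higher, and those of Usp18 nearly coincide at 902 and 916; probe sets differ in sensitivity, so their positions are not comparable between genes.

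Rsad2 encodes viperin, a radical SAM enzyme that makes a chain-terminating nucleotide from CTP. Its brightest probe set (1436058_at) had a signal of 451 with PBS and 646 with MIF, a log2 difference of 0.52. Another (1421009_at) had signals of 182 and 296, and the last (1421008_at) signals of 162 and 251. All 3 were brighter on the MIF array. For the latter probe sets the PBS signal lay under the floor, so their differences are bounds, at least 1.28-fold and at least 1.08-fold higher. As deposited, without a floor, these probe sets differed by 0.70 and 0.63 on the log2 scale. Averaging the 3 probe sets with the floor gave 0.33 for the gene, which is a bound as well. Of all assessed genes, 1.13% were higher on the MIF array by more than the brightest Rsad2 probe set.

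Cmpk2, the neighbour of Rsad2 on chromosome 12, encodes a mitochondrial nucleotide kinase that is also interferon-induced; it was named here for its position. Its brighter probe set had signals of 478 with PBS and 570 with MIF, 1.19-fold higher and just within the 1.2-fold limit. Its other probe set, at 139 and 216, lay under the floor on both arrays. Both probe sets of Cmpk2 were thus brighter on the MIF array, as were the 3 of Rsad2, by signals that for some lay under the floor.

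Ifi35 encodes an interferon-induced leucine zipper protein that pairs with NMI. Its single probe set (1424617_at) went from 590 with PBS to 879 with MIF, a log2 difference of 0.57. Of all assessed genes, 0.651% were higher on the MIF array by more than this. Nmi, the gene of its partner, had signals of 1210 and 1160, a log2 difference of -0.06. The partners thus had unlike differences, each measured by 1 probe set.

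The genes above the floor on both arrays were also split into 4 groups of nearly equal size by mean signal. In the group of 1386 genes that holds Rsad2 and Ifi35, the central 95% of log2 differences ran from -0.39 to 0.42. Both genes lay above this range, and the other 7 antiviral genes lay inside the range of their own group. Such a range covers differences between genes on these arrays and not between samples.

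**Figure D2:**
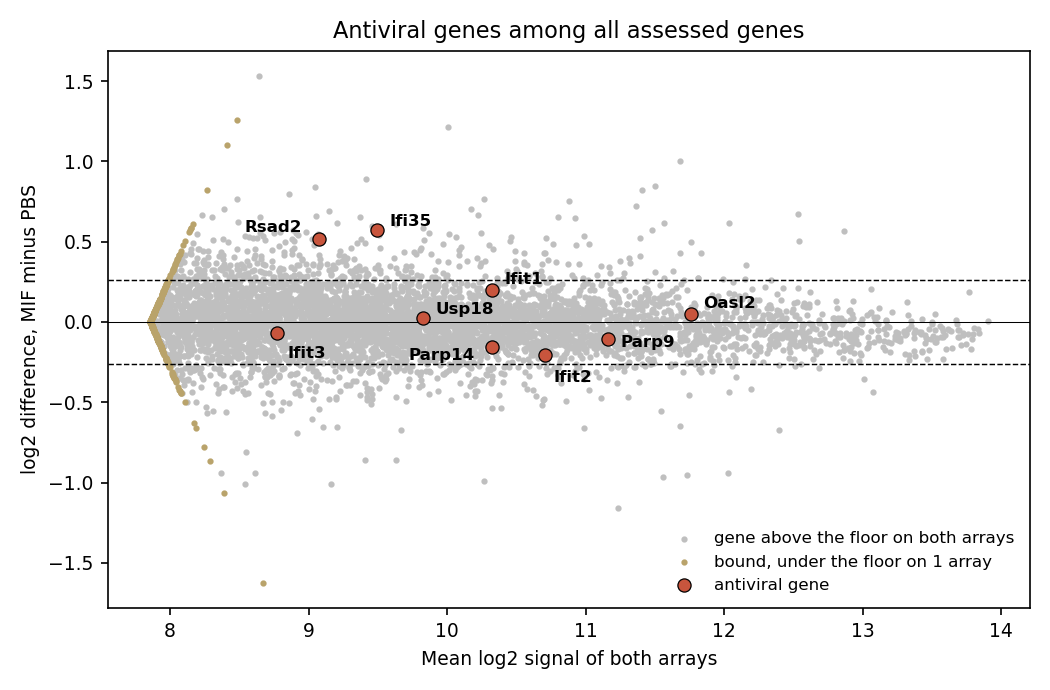
Log2 difference (MIF minus PBS) against mean log2 signal of both arrays for all 5839 assessed genes, with the 9 measured antiviral genes in red, bounds in ochre and dashed lines at 1.2-fold. Ifi35 (0.57) and Rsad2 (0.52) stand above the upper dashed line, and the other 7 lie between the lines, from -0.21 to 0.20.

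The IFIT genes encode tetratricopeptide proteins that bind viral RNA or assemble with those that do, and lie as a cluster on chromosome 19. Ifit1, whose product binds RNA without cap methylation, had signals of 1198 with PBS and 1373 with MIF (1450783_at), a log2 difference of 0.20. Ifit2 had signals of 1796 and 1557 (1418293_at), a log2 difference of -0.21. Ifit3 had signals of 447 and 426 (1449025_at), a log2 difference of -0.07. The 3 genes thus lay on both sides of 0, each within 1.2-fold and each on 1 probe set. Ifit1 and Ifit3, whose promoters share the paired ISRE cores shown above, differed in sign.

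ISG15 is a ubiquitin-like protein that is joined to other proteins, and USP18 removes it and also restrains the receptor subunit IFNAR2. Usp18 had signals of 902 with PBS and 916 with MIF (1418191_at), a log2 difference of 0.02 that turned to -0.02 after median centring. The annotation ties the only probe set for Isg15 to the pseudogene Gm9706 as well, so its signal cannot be assigned to Isg15. That shared probe set had signals of 1343 and 1562, 1.16-fold higher on the MIF array, and is in none of the counts. Uba7, which encodes the activating enzyme of ISG15, was 1.22-fold lower, from 887 to 728. A further Uba7 probe set was 1.17-fold lower, from 511 to 435, and the last lay under the floor on both arrays. Ube2l6, the gene of the conjugating enzyme, was under the floor on both arrays at 66.2 and 83.3. The ubiquitin ligase gene Trim25, which interferon also induces, had a log2 difference of -0.09 on its brightest probe set and of 0.01 and 0.23 on its others. The conjugating enzyme gene Ube2e1 differed by 0.07. Of the 8 listed partner genes, 4 were assessed, with 0 higher, 1 lower and a median of -0.08. Over all assessed genes 6.82% were higher and 6.29% lower.

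Oasl2 encodes an oligoadenylate synthetase-like protein of the family whose members make the activator of the antiviral nuclease RNase L. It had signals of 3400 with PBS and 3521 with MIF (1453196_a_at), a log2 difference of 0.05. Its neighbour Oasl1, named here for its position, had signals of 878 and 929, a log2 difference of 0.08. The pair thus had similarly small differences, well inside the 1.2-fold limit.

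Parp9 and Parp14 encode ADP-ribosyltransferase family proteins with macrodomains and lie close together on chromosome 16. Parp9, whose product works with the ubiquitin ligase DTX3L, had signals of 2376 with PBS and 2210 with MIF (1416897_at), a log2 difference of -0.10. Parp14, whose product attaches single ADP-ribose units to proteins, had signals of 1350 and 1210 (1451564_at), a log2 difference of -0.16. Both were thus slightly dimmer on the MIF array, Parp14 by about the spread between probe sets. The Dtx3l gene, which lies between them, was not analysed here.

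Other genes of the pathway gave the setting of these values. Of 69 further interferon-stimulated genes listed, 46 were in the table and 37 assessed, of which 3 were higher, 2 lower and 32 within 1.2-fold. These shares, 8.11% higher and 5.41% lower, were close to the 6.82% and 6.29% of all assessed genes. The median log2 difference of the 37 genes was 0.04, and 0.01 after median centring, beside -0.01 and -0.05 for all assessed genes. With that centring 3 were higher and 4 lower, beside 300 higher and 519 lower of all 5836 genes assessed. Slfn4, a Schlafen family gene, was the highest at 0.43, from 2827 to 3810. Pml, which encodes the organiser of nuclear bodies, followed at 0.41, from 283 to 376, and Ddx60, a helicase gene of antiviral sensing, at 0.37, from 1065 to 1375. Slfn2, another Schlafen gene, was the lowest of those above the floor on both arrays, at -0.33, from 847 to 675. The 3 higher genes, each on 1 probe set, thus had smaller log2 differences than Ifi35 and than the brightest probe set of Rsad2. The averaged Rsad2 probe sets gave 0.33, but that average includes bounds. As deposited, its dimmer probe sets differed by 0.70 and 0.63, more than these 3 genes.

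Genes that carry the interferon signal were listed as well. Of 30 listed ligand, receptor and signalling genes, 13 were in the table and 10 assessed, with a median of 0.06. At 1.2-fold 0 were higher and 0 lower, beside 6.82% higher and 6.29% lower of all assessed genes. At such shares few calls would be found in any 10 genes. Ifnar1 had signals of 256 and 275, a log2 difference of 0.11 just above the floor, and Ifnar2 was under the floor on both arrays at 100.3 and 122. Il10rb, which encodes a subunit of the type III interferon receptor, differed by 0.15. Irf9 differed by 0.15, from 598 to 662. Stat2 differed by 0.04 on its brighter probe set, from 344 to 355, while the other was at least 1.05-fold lower. Irf7, the factor that amplifies interferon production and is itself interferon-induced, had signals of 1598 and 1591, a log2 difference of -0.01. The phosphatase gene Ptpn6 differed by -0.22, within 1.2-fold, and its other probe set was at least 1.33-fold lower. The feedback inhibitor gene Socs3 differed by -0.13.

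Genes that sense nucleic acids upstream of interferon made up a further list. Of 21 listed, 10 were assessed, with 0 higher and 1 lower, beside 6.82% higher and 6.29% lower of all assessed genes. So few calls are ordinary for 10 genes at such shares. The lower gene was Ikbke, a kinase that activates interferon regulatory factors, at -0.29, from 440 to 359. Unc93b1, which carries Toll-like receptors to endosomes, differed by 0.11, the adaptor gene Myd88 by -0.10 and the helicase gene Dhx58 by 0.08. The median of this list was 0.03, and -0.01 after median centring, beside -0.01 and -0.05 for all assessed genes.

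Genes known chiefly for their induction by interferon gamma were compared as a related group. The list also holds the interferon gamma receptor genes Ifngr1 and Ifngr2, at -0.07 and 0.18, which count among those within 1.2-fold. Of 33 listed, 29 were in the table and 26 assessed, of which 20 were lower, 0 higher and 6 within 1.2-fold, beside 6.29% of all assessed genes lower. Their median log2 difference was -0.39, against 0.02 for the antiviral genes. With 1 array per group the difference between these lists could not be tested, and the interferon gamma list was written with earlier results of these arrays known. Among those above the floor on both arrays, the immunity-related GTPase gene Iigp1 was the lowest at -0.99, from 1739 to 874. The other probe set of Iigp1 differed by -1.18. Ido1, with signals of 422 and 136, lay under the floor on the MIF array. Its -0.86 is thus a bound, and its deposited signals lie farther apart than those of Iigp1 by ratio. The MHC class II genes H2-Ab1, H2-Eb1 and H2-DMa differed by -0.97, -0.95 and -0.86. The lowest of the 9 antiviral genes was Ifit2 at -0.21, within 1.2-fold.

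**Figure D3:**
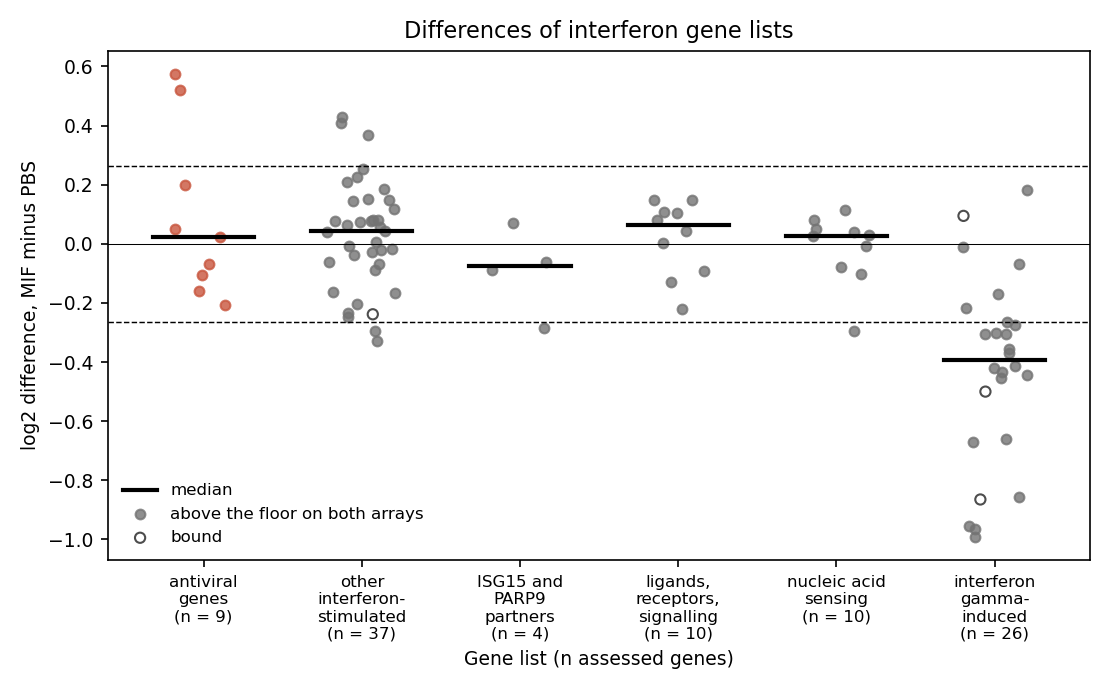
Log2 difference (MIF minus PBS) of each assessed gene in 6 interferon gene lists, with points for genes, open circles for bounds, thick bars for list medians and dashed lines at 1.2-fold. The antiviral genes (red) spread around a median of 0.02 with Ifi35 and Rsad2 above the upper line, and most interferon gamma-induced genes lie below the lower line around a median of -0.39.

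The labelled cell type was compared with its markers, and the other cells that could be present with theirs. All 19 colon epithelial markers in the table were above the floor on both arrays and within 1.2-fold, with a summed signal of 151150 with PBS and 148398 with MIF. The largest differences among them were those of the keratin gene Krt19 (-0.23), the cadherin gene Cdh1 (0.21), the chloride exchanger gene Slc26a3 (0.13) and the carbonic anhydrase gene Car2 (0.12). By any amount, 53.2% of all assessed genes were lower and 46.8% higher on the MIF array. The marker counts that follow use deposited signals and include genes under the floor. Of 9 measured T and NK cell markers, 8 were dimmer on the MIF array, and their summed signal was 1828 with PBS and 1071 with MIF. Only Gzma and Gzmb of these were above the floor, at -1.01 and -0.94, and Cd3g and Cd8a were under it on both arrays. Of 10 myeloid and plasmacytoid cell markers, 7 were dimmer, with a summed signal of 2621 and 2640, and 6 were under the floor on both arrays. Bst2, Tcf4 and Cd14, which were above the floor on both arrays, differed by -0.04, -0.02 and -0.01. Of 10 stromal markers 9 were brighter on the MIF array, with a summed signal of 793 and 1854, most of it from Dcn and Col3a1. Of these 10, 7 were under the floor on both arrays and only Dcn was above it on both, so that count rests mostly on dim signals. Dcn differed by 1.53, from 235, just above the floor, to 678. Col3a1, under the floor with PBS, had signals of 227 and 554, and its difference of 1.26 is a bound. The B and plasma cell list had 1 gene in the table, Jchain, under the floor on both arrays. No marker of these lists had a signal of 0, which does not show that the cells were present. The part of these cells in the values of Ifi35, Rsad2 and the interferon gamma-induced genes was not tested, and in RNA of whole preparations fewer cells of a type and less RNA per cell cannot be told apart.

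The differences of the 9 genes were recomputed under 8 other settings of scaling, floor and probe set choice. Ifi35 ran from 0.54 to 0.57 and Rsad2 from 0.33 to 0.52, so both stayed beyond 1.2-fold in every setting tried. With the floor at the 60th percentile, a signal of 498, the Rsad2 value of 0.38 is a bound and Ifit3 was not assessed. The Rsad2 value of 0.33, from averaged probe sets, is also a bound. No other antiviral gene reached 1.2-fold in any of these settings. At 1.5-fold none of the 9 genes was higher or lower, beside 0.634% of all assessed genes higher and 0.462% lower.

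**Figure D4:**
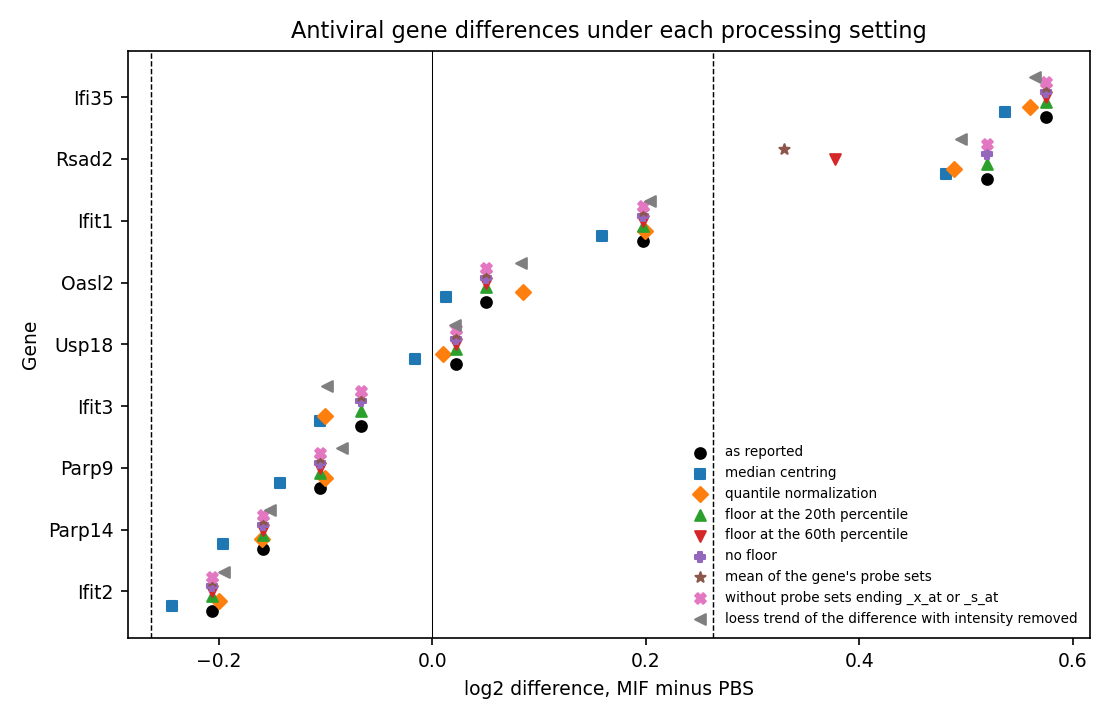
Log2 difference (MIF minus PBS) of each antiviral gene as reported and under 8 other processing settings, with dashed lines at 1.2-fold. Ifi35 and Rsad2 stay to the right of the upper line, Rsad2 dropping to a bound of 0.33 when its probe sets are averaged. Usp18 moves across 0 after median centring.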

How the data were processed

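Per the labels' protocols, Trizol was used for total RNA and the standard Affymetrix method for biotinylated cRNA. The values deposited for each probe set are signal intensities processed by the authors, judged to be linear from their range. The method of summary, background correction and scaling is not given in the sources used here. Of 15340 probe sets, 61 array controls were left out; 14049 had 1 gene symbol in GEO's platform annotation, which can be old, 490 had several and 740 none, and the last 2 kinds were left unnamed. Symbols were updated by Entrez ID through a GRCm38.p6 gene table, used for names and neighbours only. Genes under the floor on both arrays (2882) were not assessed; 154 were under it for PBS only and 142 for MIF only, and count at their bound.

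The 10 genes and all lists were chosen with earlier results of these data known. Every antiviral gene is named. Of other lists, the 4 largest differences above the floor on both arrays are named, with a fixed set of signalling and partner genes. Listed genes within 2 genes of an antiviral gene were added after the values were seen. So were Jchain, Cd3g, Cd8a, Col3a1, Ido1, Ifngr1 and Ifngr2. Some lists share genes. The steps were tested on simulated data. The software was statsmodels 0.14.6, pandas 2.3.3 and numpy 2.4.6, run in Python 3.11.15, with matplotlib 3.10.9 for plots.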

Additional observations from a re-analysis of the deposited data

How the results depend on the processing

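Results were recomputed with the arrays centred on their medians or quantile-normalized, with no floor or one at the 20th or 60th percentile, with averaged probe sets, without those named _x_at or _s_at, with a loess trend on intensity removed (span 0.3) and at 1.5-fold. The counts of antiviral genes, 2 higher and 0 lower at 1.2-fold, were the same in all but the last, where 0 were higher. Among the other interferon-stimulated genes, 5 were higher and 3 lower with the floor at the 20th percentile, and 7 higher and 4 lower with no floor. The shares of all genes at these other floors were not computed. With the loess trend removed 3 were higher and 3 lower, beside 359 higher and 405 lower of all 5839 genes assessed. After median centring 4 were lower, beside 519 of all 5836 genes assessed. At 1.5-fold 0 were higher and 0 lower, beside 0.634% and 0.462% of all assessed genes. The interferon gamma median ran from -0.43 to -0.35. Without a floor more dim genes enter the lists, 46 in place of 37. Of the single genes only Rsad2 moved by more than the SD of 0.15 between probe sets of a gene. It moved to 0.33 with averaged probe sets, of which 2 are bounds. Values near the floor of 232 carry the least signal over background. No paired analysis was possible because each group is 1 array.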
